A study of Mus musculus with 12 samples.

Results

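Genes raised in RTF2-deficient mouse embryonic fibroblasts (MEFs) of both lines examined were 12 of the 24100 genes in the count table. They were chosen by the measured counts themselves. Each count was divided by the total of its library and multiplied by 1000000 to give its CPM, and a gene was kept if its mean over the 6 RTF2-deficient libraries was at least 1 CPM, if the log2 ratio of mean RTF2-deficient to mean WT CPM was over 0.5 (1.41-fold) in line 1 and in line 2 separately, and if every RTF2-deficient library lay above every WT library. Genes on X and Y, snoRNA genes and Tbrg4 were left out. Since the genotype contrast chose these genes, their change with genotype is given as a description and carries no test. The genes, from the largest to the smallest value of the lesser of the 2 line-wise log2 ratios, were Aldh1a2, Alx1, Sntg1, Efcab7, Pdk4, Tbx1, Adamts18, D5Ertd615e, Lcor, Gm21992, Vmn1r65 and Zfp708.

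The libraries came from SV40-immortalized MEFs, which are fibroblasts grown from mouse embryos and carried in culture with the viral large T antigen. WT cells were Rtf2+/+ and RTF2-deficient cells were Rtf2-/lox, and both had been given a retrovirus for Cre, which recombines lox sites, 72 hrs before harvest. Each genotype was represented in 2 lines from different mothers, with 3 libraries per line and genotype that the study calls technical replicates, so that 12 libraries formed 4 groups. The methods describe the MEFs compared as littermates, which the labels do not state, and since each genotype of a line is a separate culture, genotype and embryo cannot be told apart in either line alone, and p-values from these libraries measure the spread within groups. Rtf2, which encodes replication termination factor 2, a protein of the replication fork, lay between 43.7 and 60.8 CPM in WT libraries and between 5.24 and 6.61 CPM in RTF2-deficient libraries. Library totals lay between 39360167 and 44695002. The 3 libraries labelled WT line 2 held at most 0.134 CPM of Xist, the transcript of the inactive X, and at least 93.2 CPM of the Y-linked Ddx3y, whereas the other 9 libraries held at least 99.1 CPM of Xist and at most 0.191 CPM of Ddx3y, so in line 2 the genotypes also differ in sex. Fibroblast markers summed to between 13191.8 and 21337 CPM in every library.

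The 12 genes do not belong to a single pathway. Embryonic mesenchyme is patterned by transcription factors such as the aristaless-like homeobox and T-box proteins, and by retinoic acid, a vitamin A derivative that cells make from retinaldehyde and that acts through nuclear receptors. Pyruvate dehydrogenase kinases switch off the entry of pyruvate into the citric acid cycle, and are known as nutrient and stress responsive genes. Secreted metalloproteases of the ADAMTS family cut proteins of the extracellular matrix that fibroblasts lay down.

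Because members of a group that moves together are often compared by their promoters, the 250 bases before the annotated start are shown for 5 of them, which span the largest change (Aldh1a2), the highest level (Pdk4), a secreted protease (Adamts18), a transcription factor (Tbx1) and a corepressor (Lcor). Sequences are from RefSeq, build GRCm38.p6, written 5′ to 3′ on the strand of the gene, and capitals mark a match to any motif searched. For Tbx1 and Adamts18 the start is an internal one of the RefSeq gene. Another Tbx1 window, at the start of the RefSeq gene itself (chr16:18590672-18590921), held no motif match and is not shown. The 5 sequences shown lie at chr9:71215539-71215788 (plus strand), chr6:5496279-5496528 (minus), chr8:113848840-113849089 (minus), chr16:18588900-18589149 (minus) and chr19:41482432-41482681 (plus), in that order.
Aldh1a2: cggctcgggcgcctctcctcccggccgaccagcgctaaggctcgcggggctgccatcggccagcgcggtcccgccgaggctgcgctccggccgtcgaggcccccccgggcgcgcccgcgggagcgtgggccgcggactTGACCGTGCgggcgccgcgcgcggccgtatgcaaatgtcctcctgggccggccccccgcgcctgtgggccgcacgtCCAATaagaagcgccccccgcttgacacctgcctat
Pdk4: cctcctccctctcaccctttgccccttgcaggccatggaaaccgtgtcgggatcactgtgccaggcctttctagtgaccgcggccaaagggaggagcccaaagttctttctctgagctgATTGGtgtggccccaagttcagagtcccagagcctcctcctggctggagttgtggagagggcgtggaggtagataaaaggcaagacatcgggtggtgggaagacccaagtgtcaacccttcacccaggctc
Adamts18: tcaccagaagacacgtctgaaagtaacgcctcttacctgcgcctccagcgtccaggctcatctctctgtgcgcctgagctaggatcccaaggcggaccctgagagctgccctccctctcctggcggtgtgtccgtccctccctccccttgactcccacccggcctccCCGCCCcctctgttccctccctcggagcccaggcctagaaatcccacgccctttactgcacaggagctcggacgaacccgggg
Tbx1: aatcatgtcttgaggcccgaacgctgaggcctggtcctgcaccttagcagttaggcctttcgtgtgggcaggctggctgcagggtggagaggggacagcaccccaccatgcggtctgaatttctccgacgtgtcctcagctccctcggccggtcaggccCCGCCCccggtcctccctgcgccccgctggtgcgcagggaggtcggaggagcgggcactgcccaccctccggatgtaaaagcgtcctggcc
Lcor: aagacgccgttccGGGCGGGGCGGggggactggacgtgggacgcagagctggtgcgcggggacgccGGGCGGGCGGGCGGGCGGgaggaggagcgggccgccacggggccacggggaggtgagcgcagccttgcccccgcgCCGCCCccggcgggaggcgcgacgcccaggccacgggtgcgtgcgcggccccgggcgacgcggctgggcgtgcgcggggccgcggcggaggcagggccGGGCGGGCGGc

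Motifs were read on both strands (the TATA box on the gene's strand alone) in windows of 300 bases, 250 before and 50 after each start. Windows were held for 8 of the 12 genes, 11 windows in all, and for 11248 of the genes tested, 14311 windows. The windows for Alx1, Sntg1, Efcab7 and D5Ertd615e were not used here. The CCAAT box (CCAAT) was in 6 of the 11 windows, belonging to Adamts18, Aldh1a2, Gm21992, Pdk4 and Vmn1r65, against 37.6% of all windows. In Aldh1a2 it began 36 bases before the start, and in Pdk4 it was on the opposite strand, 131 bases before the start. The GC box (GGGCGG) was in 3 windows, of Adamts18, Lcor and Tbx1, against 61.3% of all windows. Lcor alone had 9 matches to it, some of them overlapping. The antioxidant element (TGACNNNGC) was in 4 windows of Aldh1a2, Gm21992 and Zfp708, against 14.1%. Of these 4, 2 are the overlapping windows of Gm21992, which share a site. The same 2 windows are among the 6 with a CCAAT box and share those boxes. A STAT site (TTCNNNGAA) was in 2 windows, of Vmn1r65 and Zfp708, against 6.76%. The TEAD site (GGAATG) was in 2 overlapping windows of Gm21992 against 12.5%, the E-box (CACGTG) in 1 of Zfp708 against 9.66%, and the TATA box (TATAAA) in 1 of Zfp708 against 4.45%. The letters of the AP-1 site (TGANTCA, 5.38% of all windows), of the CRE (TGACGTCA, 2.93%) and of the E2F site (TTTCCCGC, 1.95%) were in no window of the 8 genes. No motif was in the windows of all 8 genes. GC content spanned from 40.3% in Vmn1r65 to 81% in Lcor, around a median of 60.7% over all windows.

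Of 22938 autosomal genes eligible, 11717 reached 1 CPM in RTF2-deficient MEFs. Among these 289 were over 0.5 in line 1, 636 were over 0.5 in line 2, and 94 were over it in both. Of those 94, 12 had no overlap between genotypes, which is 0.102% of the 11717. The same rule turned round, for genes lower in RTF2-deficient MEFs, took 308 of 11864 genes, or 2.60%. Tbrg4, Snora68 and the X-linked Fndc3c1 met the numerical conditions and were left out by class. Scaling of the libraries matters for 3 of the 12. With TMM normalization, which rescales libraries by the genes they share and here moved them by factors between 0.963 and 1.05, Pdk4, Sntg1 and Tbx1 no longer kept every RTF2-deficient library above every WT library. Their mean change kept its direction.

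**Figure D1:**
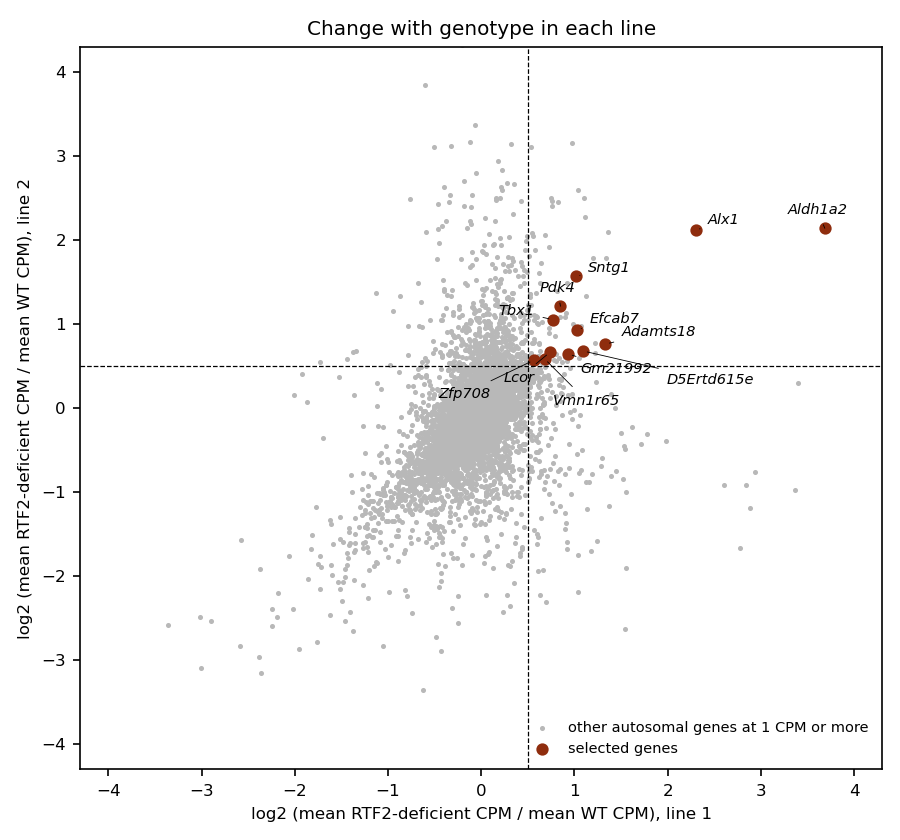
Log2 ratio of mean RTF2-deficient to mean WT CPM in line 1 (x axis) and line 2 (y axis) for the 12 selected genes (dark points, named) and 11705 other autosomal genes at 1 CPM or more (grey), with dashed lines at 0.5. Aldh1a2 and Alx1 stand apart at over 2 in both lines, the other 10 lie between 0.56 and 1.57, and 1 grey gene lies outside the axes.

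The selected genes were mostly of low abundance. In RTF2-deficient MEFs 11 of the 12 averaged under 10 CPM, and Pdk4 alone was above it. Their median WT level was 1.98 CPM against 23.3 CPM over the 14263 genes tested by edgeR, and 11 of 12 lay below that median. The median fitted log2 fold change of the 12 by edgeR was 0.98, against 0.0019 over all genes tested, a difference that the rule itself fixed. By line it was 0.997 in line 1 and 0.89 in line 2. The log2 ratio was larger in line 1 for 8 genes and larger in line 2 for 4. Aldh1a2, Alx1 and Sntg1 exceeded 1 on the log2 scale in both lines, 5 genes did so in 1 line, and Lcor, Gm21992, Vmn1r65 and Zfp708 stayed under 1 in both. Per kilobase of exon, the mean level in RTF2-deficient MEFs spanned from 0.15 CPM for Sntg1 to 23.6 CPM for Pdk4.

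**Figure D2:**
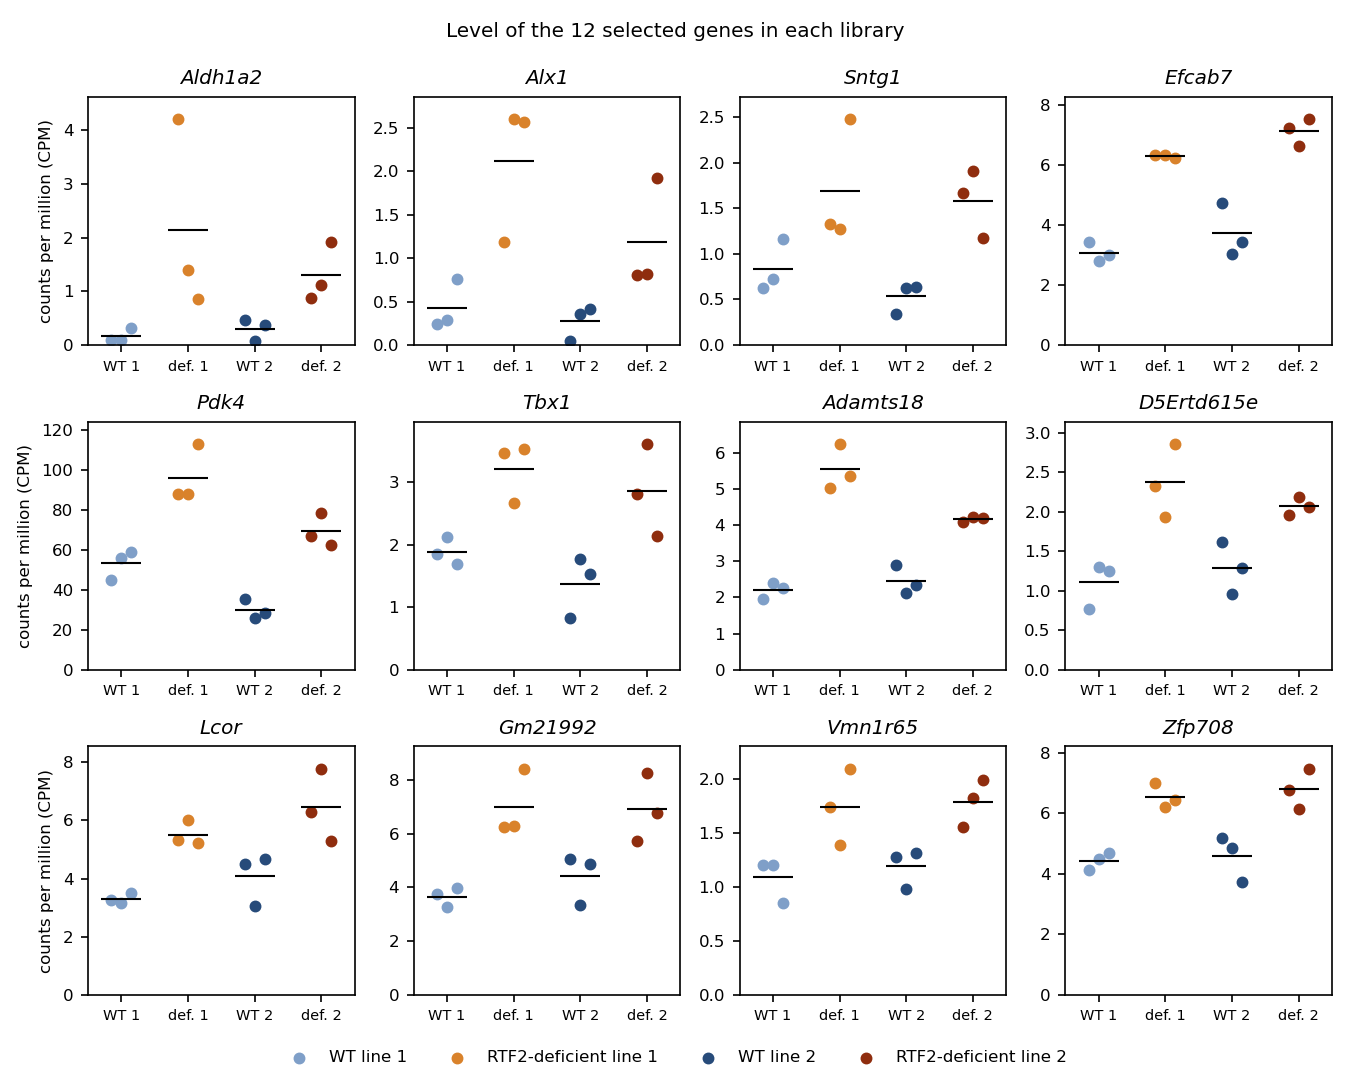
CPM (y axis, from 0, scaled separately for each gene) of the 12 selected genes in each library of the 4 groups (x axis). Points are libraries and bars are means of 3. By the rule every RTF2-deficient point lies above every WT point of its panel; Pdk4 reaches 113 CPM, and the points of Aldh1a2 are the most scattered.

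Among the enzymes, Aldh1a2 (chromosome 9, 71215789 to 71296243, 14 exons), a retinaldehyde dehydrogenase that makes retinoic acid in the embryo, had the largest change. Its level was 0.0965, 0.0966 and 0.308 CPM in WT line 1 and 0.457, 0.0671 and 0.366 CPM in WT line 2, from between 3 and 20 counts per library. In RTF2-deficient libraries it was 4.21, 1.39 and 0.857 CPM in line 1 and 0.884, 1.12 and 1.92 CPM in line 2. No WT library reached any RTF2-deficient library, and the lowest RTF2-deficient library was 1.88 times the highest WT library, the widest gap of the 12. The log2 ratio was 3.69 in line 1 and 2.14 in line 2, and the edgeR log2 fold change was 2.89 ± 0.56 (SE). Library 1 of RTF2-deficient line 1 was far above the other 5 RTF2-deficient libraries, and without it the fold in line 1 was 6.73 in place of 12.9 and the edgeR log2 fold change was 2.42. Pdk4 (chromosome 6, 5483351 to 5496309), the pyruvate dehydrogenase kinase of fasting, was the most abundant. It stood at 45, 56.2 and 59.2 CPM in WT line 1 and at 87.9, 88.0 and 113 CPM in RTF2-deficient line 1. In line 2 the WT libraries held 35.6, 25.8 and 28.4 CPM and the RTF2-deficient libraries 67.3, 78.7 and 62.3 CPM. All of line 2 was lower than the same genotype in line 1, and the RTF2-deficient libraries of line 2 cleared WT line 1 by a ratio of only 1.05. The edgeR log2 fold change of Pdk4 was 1.06 ± 0.12. With WT line 2, which differs in sex, left out and both RTF2-deficient lines set against WT line 1, Pdk4 did not meet the rule. Adamts18 (chromosome 8, 113697126 to 113848738), a secreted metalloprotease, was at 1.95, 2.39 and 2.25 CPM in WT line 1 and at 5.02, 6.24 and 5.36 CPM in RTF2-deficient line 1. Its line 2 values were 2.90, 2.13 and 2.34 CPM in WT and 4.08, 4.22 and 4.2 CPM in RTF2-deficient libraries, with a log2 ratio of 0.76 against 1.33 in line 1. The 3 RTF2-deficient libraries of line 2 were close together, with an SD of 1.75% of their mean.

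Transcriptional regulators made up 4 of the 12. Alx1 (chromosome 10, 102998707 to 103030215), a homeobox factor of craniofacial mesenchyme, was at 0.241, 0.290 and 0.759 CPM in WT line 1 and at 0.0457, 0.358 and 0.415 CPM in WT line 2. The RTF2-deficient libraries held 1.18, 2.60 and 2.57 CPM in line 1 and 0.812, 0.813 and 1.92 CPM in line 2. The highest WT value and the lowest RTF2-deficient value were close, at a ratio of 1.07, although the group means differed by 4.93-fold in line 1 and 4.34-fold in line 2. Tbx1 (chromosome 16, 18580979 to 18590671), a T-box factor of the pharyngeal apparatus, was at 1.86, 2.13 and 1.68 CPM in WT line 1 and at 3.46, 2.67 and 3.52 CPM in RTF2-deficient line 1. In line 2 it was at 0.822, 1.77 and 1.54 CPM in WT and at 2.82, 3.61 and 2.14 CPM in RTF2-deficient libraries, and library 3 of RTF2-deficient line 2 passed library 2 of WT line 1 by a ratio of 1.005. Lcor (chromosome 19, 41482637 to 41562261), a ligand-dependent corepressor of nuclear receptors, lay between 3.04 and 4.68 CPM in WT and between 5.22 and 7.77 CPM in RTF2-deficient libraries. Zfp708 (chromosome 13, 67069399 to 67097976), a zinc finger protein gene, lay between 3.71 and 5.16 CPM in WT and between 6.15 and 7.46 CPM in RTF2-deficient libraries. Its log2 ratios of 0.56 and 0.57 were the nearest to the bound. The identity of the Zfp708 counts is uncertain, since 96.4% of its exon bases overlap the same-strand models Gm28557 and Rslcan18, and 94.3% of its 75-base stretches also occur in transcripts of other genes.

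Genes of the membrane and cilium were 3. Efcab7 (chromosome 4, 99829198 to 99912788) encodes an EF-hand protein of the primary cilium that takes part in Hedgehog signalling. Its level was 3.45, 2.80 and 3.01 CPM in WT line 1, 4.73, 3.04 and 3.44 CPM in WT line 2, 6.34, 6.33 and 6.24 CPM in RTF2-deficient line 1 and 7.24, 6.66 and 7.53 CPM in RTF2-deficient line 2. Values in RTF2-deficient line 1 had an SD of 0.893% of their mean, and the ratio of lowest RTF2-deficient to highest WT was 1.32. Sntg1 (chromosome 1, 8361475 to 9299878), a gamma syntrophin of the dystrophin complex known from neurons, spans 938 kb. It was at 0.627, 0.725 and 1.16 CPM in WT line 1 and 1.32, 1.28 and 2.48 CPM in RTF2-deficient line 1, and at 0.343, 0.626 and 0.634 CPM in WT line 2 and 1.67, 1.91 and 1.17 CPM in RTF2-deficient line 2. The genotypes of Sntg1 nearly met, with 1.17 CPM as the lowest RTF2-deficient value and 1.16 CPM as the highest WT value. Vmn1r65 (chromosome 7, 6007750 to 6011010), a vomeronasal receptor of pheromone sensing, lay between 0.854 and 1.32 CPM in WT and between 1.39 and 2.10 CPM in RTF2-deficient libraries.

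The remaining members are transcript annotations. D5Ertd615e (chromosome 5, 45009171 to 45424402), annotated as a long noncoding RNA and the only noncoding member, lay between 0.772 and 1.62 CPM in WT and between 1.94 and 2.86 CPM in RTF2-deficient libraries. Gm21992 (chromosome 19, 4742913 to 4811612) is a readthrough model that joins Rbm14 to Rbm4, which encode RNA-binding proteins. It held 3.74, 3.26 and 3.96 CPM in WT line 1, 6.25, 6.28 and 8.41 CPM in RTF2-deficient line 1, 5.05, 3.36 and 4.88 CPM in WT line 2 and 5.73, 8.26 and 6.76 CPM in RTF2-deficient line 2. Of its exon bases 64.3% overlap Rbm14 or Rbm4 on the same strand, so how reads were divided among these models is uncertain. Rbm14 and Rbm4 were not called higher. Rbm14, whose start lies 0.022 kb from that of Gm21992, averaged 67.8 CPM in WT and 70.3 CPM in RTF2-deficient libraries (edgeR's quasi-likelihood test, log2 fold change 0.08 ± 0.08, Benjamini-Hochberg adjusted p = 0.486). Rbm4 fell by 0.30 on the log2 scale (SE 0.07, adjusted p = 0.0201 by the same test), with 5 of 6 RTF2-deficient libraries below every WT library, although without library 1 of WT line 1 its adjusted p was 0.054. Rbm4b, a near copy of Rbm4, had a log2 fold change of 0.05 (adjusted p = 0.698). Of the exon bases of Alx1 4.22% overlap another gene, and the exons of the members other than Zfp708, Gm21992 and Alx1 overlap none.

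**Figure D3:**
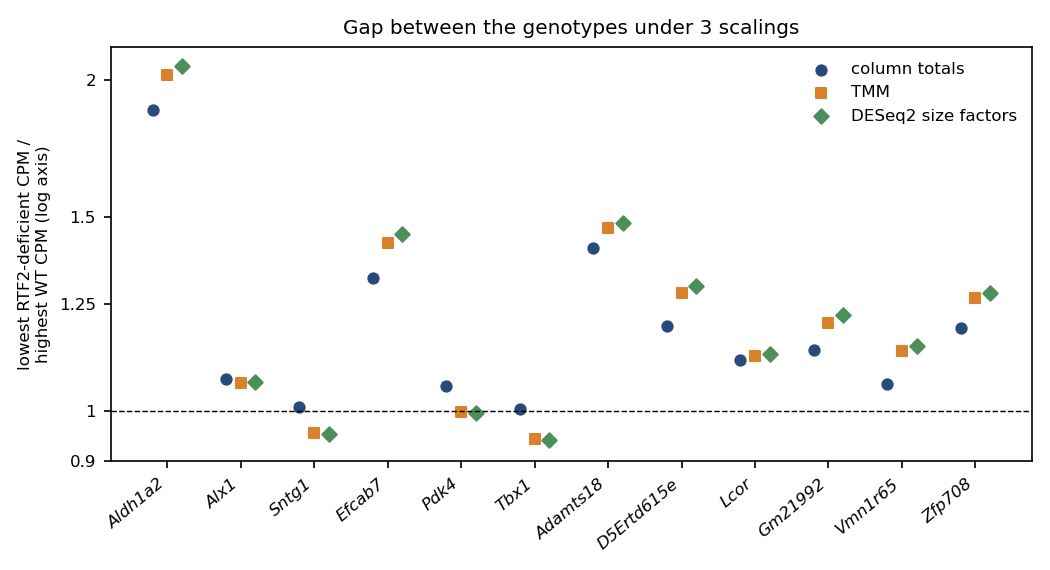
Ratio of the lowest RTF2-deficient to the highest WT level (log axis) for each selected gene, with libraries scaled by column totals as in the rule, by TMM and by DESeq2 size factors. Above the dashed line at 1 the genotypes do not overlap; Sntg1, Pdk4 and Tbx1 fall below it under both other scalings, and Aldh1a2 is highest under each.

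The genes on either side of each bound show how sharp the choice was. For the fold bound, Zfp708, Vmn1r65 and Gm21992 lay just inside, at 0.56, 0.59 and 0.64 for the lesser log2 ratio, and Crebbp, Ivns1abp and Otud3 lay just outside at 0.49, 0.48 and 0.48. For the bound on the level, Sntg1, Alx1 and Aldh1a2 were inside at 1.64, 1.65 and 1.73 CPM, and Usp29, Gm16596 and Gm16982 were outside at 0.714, 0.687 and 0.568 CPM. For the condition of no overlap, Tbx1, Sntg1 and Pdk4 were inside with ratios of 1.005, 1.009 and 1.05, and Lad1, Tma16 and Slc6a15 were outside with ratios of 0.993, 0.976 and 0.965. Lad1 would otherwise have ranked with the largest changes, at log2 ratios of 1.04 in line 1 and 2.60 in line 2. It was kept out by library 2 of WT line 1, which held 5.92 CPM, against 5.87 and 5.91 CPM in libraries 1 and 3 of RTF2-deficient line 2. Leaving out single libraries gave between 11 and 22 genes. Aldh1a2, Alx1, Sntg1, Efcab7, Pdk4, Tbx1, Adamts18 and D5Ertd615e were selected in all 12 such sets, whereas Gm21992 and Zfp708 were lost in 2 sets each and Lcor and Vmn1r65 in 1 each.

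Differences between the lines within a genotype were not part of the rule, although the condition of no overlap bounds them, and were tested in a layout of the 4 groups. Between the WT lines, which unlike the RTF2-deficient lines also differ in sex by Xist and Ddx3y, 14.0% of all genes tested differed. The condition of no overlap and the low counts of most of the 12 make calls less likely among them. Their share is therefore not compared with that of all genes. Of the 12 selected genes only Pdk4 differed. It was lower in WT line 2 than in WT line 1 (log2 difference -0.90, edgeR's quasi-likelihood test, Benjamini-Hochberg adjusted p = 0.00334), with the 3 libraries of each line not overlapping. For the other 11 the log2 difference of WT line 2 against WT line 1 lay between -0.72 and 0.74, and the lowest adjusted p was 0.266. Between the RTF2-deficient lines 1.94% of all genes differed and 0 of the 12 passed, with log2 differences between -0.90 and 0.18 and a lowest adjusted p of 0.150. At an unadjusted p under 0.05 there were 2 of the 12, and DESeq2 called 1, Pdk4, which edgeR gave a log2 difference of -0.52. Spread within groups was wide for the rarest genes. The ratio of SD to mean over 3 libraries reached 83.6% for Aldh1a2 in RTF2-deficient line 1 and 72.8% for Alx1 in WT line 2, against medians over all genes tested between 9.87% and 12.6% in the 4 groups.

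Genes that share a symbol stem with a selected gene were not chosen by the rule and could be tested. By edgeR's quasi-likelihood test 711 of 14263 genes were higher in RTF2-deficient MEFs (4.98%) and 1167 were lower (8.18%). The count of higher genes was 1297 by DESeq2, 445 without library 3 of WT line 2, and 394 and 335 without libraries 1 and 2 of RTF2-deficient line 2. In line 1 alone, an alternative chosen after seeing the data with 3 libraries per genotype, it was 97. There the genotypes did not differ in sex by Xist and Ddx3y. These calls take each library as a replicate. With the 3 libraries of each group summed to 1, so that 4 sums were compared, edgeR called 0 genes higher (1098 at an unadjusted p under 0.05) and 0 lower (1639), and none of the calls given here and in the following paragraphs was made. Alx4, the only Alx1 paralog tested and likewise a homeobox factor of limb and craniofacial mesenchyme, rose with a log2 fold change of 1.58 ± 0.29 (adjusted p = 0.00389). Its level was 1.78, 2.78 and 3.04 CPM in WT line 1, 2.79, 7.98 and 8.41 CPM in RTF2-deficient line 1, 0.548, 0.761 and 1.07 CPM in WT line 2 and 3.30, 2.64 and 2.30 CPM in RTF2-deficient line 2. In line 2 every RTF2-deficient library of Alx4 was above every WT library, whereas in line 1 library 1 of the RTF2-deficient group lay below library 3 of WT, and 3 of 6 RTF2-deficient libraries were above all 6 WT libraries. Of 16 other aldehyde dehydrogenases 1 rose and 4 fell. Aldh1a3, which like Aldh1a2 makes retinoic acid, averaged 7.31 CPM in WT and 14.7 CPM in RTF2-deficient libraries (log2 fold change 1.08 ± 0.27, adjusted p = 0.0214). The log2 fold change of Aldh1a3 was 0.52 in line 1, where the highest WT library (12.25 CPM) lay above the lowest RTF2-deficient library (12.02 CPM), and 1.65 in line 2, where sex also differs, and 4 of 6 RTF2-deficient libraries were above all 6 WT libraries. This call was lost without library 3 of WT line 2 (adjusted p = 0.0542) or library 2 of RTF2-deficient line 2 (adjusted p = 0.0502). Aldh16a1 fell by 1.15 on the log2 scale (SE 0.09, adjusted p = 1.63e-05), Aldh3b1 by 0.997, Aldh18a1 by 0.51 and Aldh3a2 by 0.24. The calls for Aldh18a1 and Aldh3a2 were lost in 7 and 6 of the 12 sets that left out a library. Among 16 ADAMTS genes Adamts13, the protease that cuts von Willebrand factor, rose by 0.59 ± 0.11 (adjusted p = 0.00537) and the others did not pass.

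Paralogs of Efcab7, Pdk4, Tbx1 and Vmn1r65 numbered 20, of which 0 were called by edgeR in either direction. At an unadjusted p under 0.05 there were 0 higher and 2 lower, and DESeq2 called 0. The other pyruvate dehydrogenase kinases had log2 fold changes of -0.41 (Pdk1, adjusted p = 0.248), 0.06 (Pdk2, 0.844) and 0.00 (Pdk3, 0.971), beside 1.06 for Pdk4. Of 363 genes with the stem Zfp 20 were higher (5.51%) and 11 lower (3.03%), beside 4.98% and 8.18% of all genes.

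**Figure D4:**
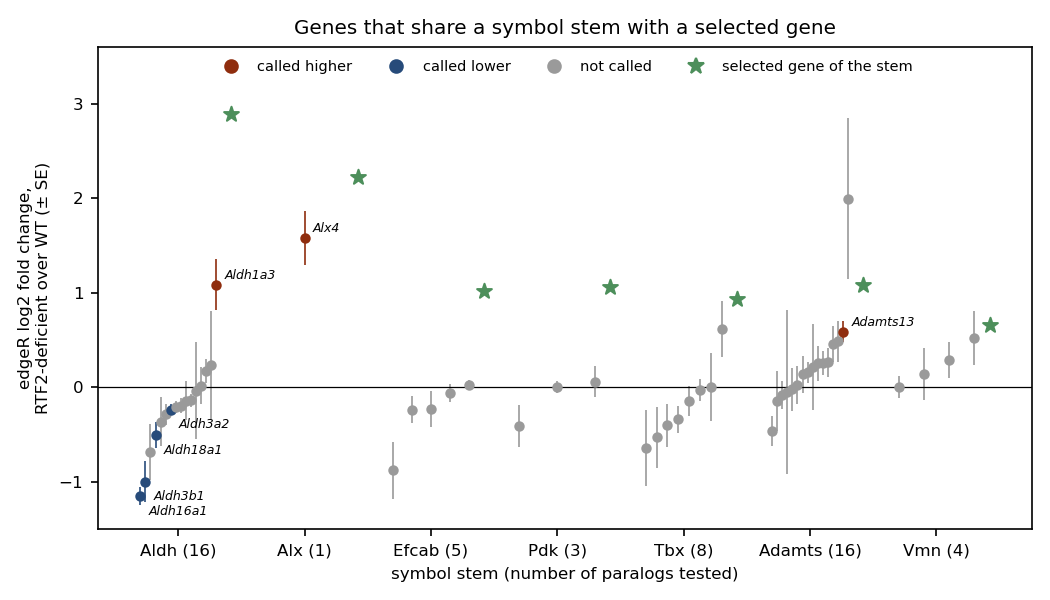
Log2 fold change of RTF2-deficient over WT MEFs by edgeR, with its SE, for genes sharing a symbol stem with 7 selected genes (x axis, number tested in brackets), coloured by call; stars mark the selected gene of each stem. Alx4, Aldh1a3 and Adamts13 are called higher and 4 aldehyde dehydrogenases lower.

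Of the pathway lists, retinoic acid and mesenchyme transcription factors each held a selected gene. Of the 18 retinoic acid genes tested other than Aldh1a2, Aldh1a3 was higher (5.56%, beside 4.98% of all genes), Crabp1 and Rarres1 were lower (11.1%, beside 8.18%) and 15 were not called, with a median log2 fold change of -0.07. DESeq2 called 4 higher and 3 lower, and at an unadjusted p under 0.05 edgeR gave 4 higher and 4 lower. Crabp1, a cytosolic carrier of retinoic acid, fell by 0.69 (SE 0.19, adjusted p = 0.0305), and Rarres1, a gene named for its induction by retinoids, by 1.39 (SE 0.39, adjusted p = 0.0354). The log2 fold change of Crabp1 was -1.24 in line 1 but only -0.17 in line 2. The call was lost in 6 of the 12 sets without a library for Crabp1 and in 7 for Rarres1, and with a replicate block the adjusted p of Crabp1 was 0.051. Cyp26b1, which degrades retinoic acid, averaged 29.0 CPM in WT and 39.5 CPM in RTF2-deficient libraries and did not pass (log2 fold change 0.55, adjusted p = 0.0835), although DESeq2 called it (adjusted p = 0.0287), as did edgeR with a replicate block (0.0237), without library 1 of WT line 1 (0.0215) and without library 3 of RTF2-deficient line 1 (0.0465). Of the 74 mesenchyme transcription factors tested other than Alx1, 11 were higher (14.9%, beside 4.98% of all genes), 3 were lower (4.05%, beside 8.18%) and 60 were not called, with a median of 0.06. The higher ones included Alx4, the zinc finger genes Zic1 (0.87 ± 0.12, adjusted p = 0.000709) and Zic4 (1.04 ± 0.18, adjusted p = 0.00313), Gata6 (0.62 ± 0.12, adjusted p = 0.00649) and Foxl1 (0.55 ± 0.10, adjusted p = 0.0048). RTF2-deficient libraries above all 6 WT libraries were 3 of 6 for Zic1 and Zic4 and 5 of 6 for Gata6 and Foxl1. Prrx1, a marker of limb mesenchyme, fell by 0.47 (SE 0.07, adjusted p = 0.00151) and Twist1 by 0.27 (SE 0.08, adjusted p = 0.034). The call for Twist1 was lost in 7 of the 12 sets without a library and with a replicate block (adjusted p = 0.0579). Osr2 was also lower, at a mean of 0.638 CPM in WT and 0.105 CPM in RTF2-deficient libraries (log2 fold change -2.66 ± 0.57, adjusted p = 0.00883). RTF2-deficient libraries below all 6 WT libraries were 3 of 6 for Prrx1 and Osr2 and 5 of 6 for Twist1. Of 11 Hedgehog pathway genes, the pathway of Efcab7, 0 were called, 0 passed at an unadjusted p under 0.05 and DESeq2 called 0.

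Neighbours were examined because transcripts can run from one gene into the next. Within 100 kb of the start of a selected gene 20 other genes were tested, near 5 of the 12, and 0 were higher and 3 were lower by edgeR, against 4.98% and 8.18% of all genes. At an unadjusted p under 0.05 there were 2 higher, and DESeq2 called 0 higher and 4 lower. All 3 lower genes lay near Gm21992, namely Rbm4, Ccs (fell by 0.33, adjusted p = 0.0289) and Zdhhc24 (fell by 0.68, adjusted p = 0.00274). Every RTF2-deficient library of Zdhhc24 was below every WT library. The call for Ccs, the copper chaperone of superoxide dismutase, was lost in 6 of the 12 sets without a library. Rslcan18, which overlaps Zfp708, averaged 0.427 CPM in WT and 0.431 CPM in RTF2-deficient libraries (log2 fold change 0.01, adjusted p = 0.983). Within 500 kb 116 genes were tested, of which 3 were higher and 11 lower, beside 4.98% and 8.18% of all genes. The 11 lower included Rab1b (fell by 0.65, adjusted p = 0.000241) near Gm21992 and 2510002D24Rik (fell by 0.76, adjusted p = 0.000506) near Tbx1. The 3 higher ones were Gal3st3 (0.87, adjusted p = 0.046) 487 kb from Gm21992, Tm9sf3 (0.26, adjusted p = 0.0262) 219 kb from Lcor and Dync1i1 (1.04, adjusted p = 0.0227) 229 kb from Pdk4. Their log2 fold changes were 0.23, 0.16 and 0.46 in line 1 and 1.57, 0.37 and 1.76 in line 2, where sex also differs. Of 6 RTF2-deficient libraries 3, 6 and 1 were above all 6 WT libraries. Without single libraries the call was lost in 9 sets for Gal3st3, 5 for Tm9sf3 and 4 for Dync1i1, and with a replicate block the adjusted p of Gal3st3 was 0.0647. The 12 genes lay on 11 chromosomes, with Lcor and Gm21992 both on chromosome 19 and none on chromosome 2, which holds Rtf2.

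Some markers of other cell types moved along with the genotype. Of 12 epithelial markers tested 4 were higher (33.3%, beside 4.98% of all genes) and 0 lower by edgeR, namely Lad1 (1.8 ± 0.29, adjusted p = 0.00187), Krt18 (0.74 ± 0.21, adjusted p = 0.0381), Jup (0.25 ± 0.07, adjusted p = 0.0458) and Cldn4, which lay between 0 and 0.0457 CPM in WT and between 0.0232 and 0.86 CPM in RTF2-deficient libraries. The calls were lost in 9 of the 12 sets without a library for Krt18 and in 8 for Jup, and with a replicate block the adjusted p of Krt18 was 0.0575. The 16 epithelial markers summed to between 167 and 199 CPM in WT and between 191 and 221 CPM in RTF2-deficient libraries, and Krt14, Esrp1 and Grhl2 of this list had 3 counts or fewer in every library. Of 4 endothelial markers tested Kdr was higher (0.58 ± 0.17, adjusted p = 0.0492) and Plvap lower (fell by 0.93, SE 0.26, adjusted p = 0.032). Both calls were lost with a replicate block (adjusted p = 0.0684 and 0.055), and in 9 and 7 of the 12 sets without a library. Macrophage, skeletal muscle, neural and glial, and erythroid markers, of which 5, 5, 4 and 2 were tested, had no call by edgeR or DESeq2 in either direction. At an unadjusted p under 0.05 there were 0 higher and 2, 2, 1 and 0 lower. So few genes cannot show that these markers were unchanged. The largest sum in a library was 14.9 CPM for macrophage, 23.5 CPM for endothelial, 44.8 CPM for skeletal muscle, 128 CPM for neural and glial, and 0.621 CPM for erythroid markers. In bulk RNA more cells of a type and more RNA per cell cannot be told apart, and the part of these markers in the 12 genes was not tested. Interferon-stimulated genes had a lower median log2 fold change (-1.64) although 0 of 28 were called by edgeR, with 2 lower at an unadjusted p under 0.05 and 2 lower by DESeq2. Their median log2 CPM lay between 0.64 and 3.75 in WT line 1, between 0.10 and 1.75 in RTF2-deficient line 1, between 4.51 and 8.11 in WT line 2 and between 1.36 and 6.49 in RTF2-deficient line 2, and its part in the 12 genes was not tested.

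As transcripts, the 12 genes had a median GC content of 44% against 49.7% for all genes tested, with Tbx1 highest at 62.8% and Zfp708 lowest at 37.8%. Their longest transcripts had a median of 2918 bases against 3378.5 bases, with 7.5 exons against 7. The genomic span was wider, with a median of 74.2 kb against 23.8 kb, from 3.26 kb for Vmn1r65 to 938 kb for Sntg1.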

How the data were processed

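RNA of 12 libraries was sequenced, and the authors deposited whole-number counts of reads per gene, not normalized, with Entrez Gene identifiers and mm10 gene models. Salmon and tximport stand in the methods but HTSeq in the processing notes of the submitters, and which of them made these counts was not resolved. Strand use and poly(A) selection: not given in the sources used here. A count of 0 allows up to 3 counts, or 0.0762 CPM in the shallowest library, for counting error only. RefSeq held 24045 of 24100 identifiers, and positions, exons and transcripts came from GENCODE M21 (GRCm38).

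CPM used column totals. Genes passing filterByExpr (14263) were normalized by TMM and tested with edgeR 4.0.16 (glmQLFit, glmQLFTest; terms for line and genotype, or the 4 groups) in R 4.3.3. A call needed a Benjamini-Hochberg adjusted p under 0.05. Alternatives used RLE, no filter, DESeq2 1.42.0, a replicate block, summed triplicates and single libraries left out. Scripts were tested on simulated data. All 12 selected genes were named, with Rtf2 and genes next to each bound. Neighbours called within 100 kb and those called higher within 500 kb were also named, but not all those called lower within 500 kb. Paralogs share at least 3 letters before the first digit of the symbol. The selected genes, the lists and the tests were chosen with earlier results of these data known, and the other genes named, paralogs and listed genes among them, were chosen after their values were seen.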

Additional observations from a re-analysis of the deposited data

Results flagged for a closer look

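Among 26 groups of 6 libraries (12 selected genes and Rtf2 in each genotype), 2 held a library far from the rest by Dixon's criterion. Its nominal rate of about 5% is for a single normal sample. Each group here joins 2 lines, and the rule bounded the values of the selected genes, so that rate is no yardstick here. Aldh1a2 was at 4.21 CPM in library 1 of RTF2-deficient line 1, against 1.92 CPM in the next highest RTF2-deficient library. Efcab7 was at 4.73 CPM in library 1 of WT line 2, against 3.45 CPM in the next highest WT library. Aldh1a2 and Efcab7 were selected with or without these libraries.

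The change of Crabp1 with genotype differed between the lines. It was -1.24 on the log2 scale in line 1 and -0.17 in line 2, a difference of 1.07 (edgeR's quasi-likelihood interaction test, Benjamini-Hochberg adjusted p = 0.0373). Over all 14263 genes tested, 184 passed this test.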

How the results depend on the processing

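The number of selected genes was 12 under the rule, 14 with TMM and 15 with DESeq2 size factors, of which 9 were shared with the 12 in each case. It was 5 with a floor of 5 CPM, 24 with a floor of 0.1 CPM, 94 with overlap allowed, 3 with a log2 bound of 1 and 33 with a bound of 0.4. It lay between 11 and 22 with single libraries left out, and was 19 without library 2 or 3 of WT line 1 or library 1 of RTF2-deficient line 1 and 22 without library 1 of WT line 2 or library 3 of RTF2-deficient line 2. With WT line 2 left out and both RTF2-deficient lines set against WT line 1, an alternative chosen after seeing the data, it was 90, with all of the 12 but Pdk4 among them. Genes called higher by edgeR numbered 711, and 1297 by DESeq2, 97 in line 1 alone (chosen after seeing the data), 0 with triplicates summed to 4 libraries (1098 at an unadjusted p under 0.05) and between 335 and 830 with libraries left out. They numbered 445 without library 3 of WT line 2, and 394 and 335 without libraries 1 and 2 of RTF2-deficient line 2. The median of the 12 stayed between 0.96 and 1.06. DESeq2 called 1 selected gene between the RTF2-deficient lines. Neighbours called higher within 100 kb were 0, and between 0 and 1 with libraries left out (1 without library 3 of WT line 1). Within 500 kb they were 3 with all libraries. Paralogs called higher were 23 of 416 tested, 20 of them with the stem Zfp, beside 4.98% of all genes. With libraries left out they were between 14 and 23 (14 or 15 without libraries 2 or 3 of RTF2-deficient line 1 or of WT line 2, or libraries 1 or 2 of RTF2-deficient line 2).

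With a replicate block, genes called higher numbered 581 of 14263 and paralogs called higher 14 of 416, and the median of the 12 was 0.99. Crabp1, Krt18, Gal3st3, Kdr, Plvap and Twist1 lost their calls (adjusted p between 0.051 and 0.0684 by edgeR) and Cyp26b1 gained one (0.0237). Deviations of same-numbered libraries correlated at 0.625, 0.43 and 0.484 in line 1, where each library correlated best with its own number. In line 2 they correlated at -0.587, 0.17 and -0.279, so the numbers paired the libraries of line 1 but not those of line 2. In line 2 the WT libraries correlated best with other numbers. These were WT 1 with RTF2-deficient 3 (0.654), WT 2 with RTF2-deficient 1 (0.612) and WT 3 with RTF2-deficient 2 (0.367). The replicate block used the numbers as labelled, so it did not join these libraries of line 2. A block that joins them was not run.

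With libraries left out the log2 fold change spanned from -0.028 to 0.15 for Pdk2, from -0.023 to 0.045 for Pdk3 and from -0.16 to 0.30 for Rslcan18. The depth limits statements on Aldh1a2, Alx1 and Sntg1, whose WT libraries held as few as 3, 2 and 15 counts.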
